A study of Arabidopsis thaliana with 15 samples.

Results

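The genes described here code for proteins of the small (40S) subunit of the cytosolic ribosome of Arabidopsis thaliana. They were chosen by identifier as the genes of proteins Sa, S2 to S5 and S7 to S23, without the genes of S6, and the list holds 60 genes in 23 families of paralogs. Of these, 59 had a row in a table of 21777 genes, and 57 had a mean of at least 10 normalized counts over the 15 libraries and were tested among 16335 genes. RPS2B had no row, and RPS8B and RPS23A, with means of 6.27 and 2.31, fell short of that mean, while the lowest member tested was RPSaB with a mean of 28.3. The list follows from the names of the proteins, but it was chosen with earlier results of these data known.

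Each 40S subunit carries a single copy of nearly every one of these proteins, arranged around the 18S ribosomal RNA into a head and a body between which the messenger RNA is threaded. In plants each protein is made from several nearly alike genes, whose products can replace each other in the ribosome to varying degrees. The protein eS6 sits in the body of the same subunit and is a target of the TOR kinase pathway, a regulator of growth. Ribosomal protein genes are known for high expression in dividing tissue, such as young leaves and meristems. Many of their promoters in plants hold short motifs named site II (TGGGCC or TGGGCT) and the telo-box (AAACCCTA).

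Shoots of 12-day-old seedlings grown in long days (16 h light, then 8 h dark) were sampled from 5 genotypes, 3 libraries each. The lines rps6a and rps6b each carry a mutation in 1 of the 2 genes for eS6. The lines eS6A-HA and eS6A-Δ6SA are mutant in both genes and carry a transgene, and the double mutation is therefore common to both of them. WT, with neither mutation nor transgene named in its labels, was the control. The labels give neither the promoter of the transgenes, nor the change that Δ6SA stands for, nor whether the 3 libraries of a genotype came from separate growths, so p-values measure the spread between these libraries, which may be technical.

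The values are called normalized counts below, since each library's read counts had been scaled by its own size factor. Recovered gene reads ranged from 5726410 to 10009723 per library. RPS6A had 60.5, 85.5 and 63.5 normalized counts in rps6a libraries, against 1062, 969 and 824 in WT libraries, and RPS6B had 253, 270.5 and 276 in rps6b libraries, against 978, 918 and 899 in WT libraries, so the targeted gene was low where its label places the mutation. RPS6B was also low in both transgenic lines, at 72.0, 95.9 and 92.1 in eS6A-HA and 67.5, 58.4 and 67.0 in eS6A-Δ6SA. RPS6A was not low there, at 1765, 1879 and 1836 in eS6A-HA and 1112, 1385 and 1220 in eS6A-Δ6SA. Photosynthetic shoot markers were abundant in every library (the small Rubisco subunit gene RBCS1A averaged 50652 normalized counts over the 15). Of the 5 root markers WOX5, COBL9 and PRP3 stayed between 0 and 5.39 in every library, and EXPA7 had no row. PYK10 alone was tested, and it passed as higher in both single mutants than in WT.

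The promoters of the 57 tested genes were read from the RefSeq assembly TAIR10.1 as the 250 bases before the annotated start of each gene. They are shown because short motifs in them are known to recur in ribosomal protein genes of different families. The letters TGGGCC or TGGGCT stood on either strand in 35 of the 57 windows (61.4%), against 19.2% of 27443 windows of nuclear protein-coding genes and 24.2% of the 15844 such genes with a mean of at least 10. TGGGCC alone stood in 29 windows (50.9%, against 13.7% of all nuclear protein-coding genes), TGGGCT in 22 (38.6%, against 12.3%), and AAACCCTA in 9 (15.8%, against 4.49%). Matches that share letters were each counted, so that TGGGCCCA gives 2 matches of TGGGCC, 1 on each strand. The 3 windows below are written on the strand of the gene, with the matches of either strand in capitals. They belong to the genes with the largest fold change in rps6b of the families S9, S15 and S2. The last of them is without any match, as in 20 of the 57 windows (35.1%). These are not the 3 largest fold changes in rps6b. RPS2D and RPS20B stood between RPS2A and RPS9B, and their windows held no match either.
RPS9B, chr5:4936430-4936679, minus strand: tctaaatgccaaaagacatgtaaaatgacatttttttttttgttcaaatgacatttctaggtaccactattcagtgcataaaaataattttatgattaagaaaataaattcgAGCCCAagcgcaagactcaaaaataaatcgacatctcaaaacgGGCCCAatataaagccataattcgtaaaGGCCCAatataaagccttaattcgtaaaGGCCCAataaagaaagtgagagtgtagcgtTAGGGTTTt
RPS15A, chr1:1143131-1143380, minus strand: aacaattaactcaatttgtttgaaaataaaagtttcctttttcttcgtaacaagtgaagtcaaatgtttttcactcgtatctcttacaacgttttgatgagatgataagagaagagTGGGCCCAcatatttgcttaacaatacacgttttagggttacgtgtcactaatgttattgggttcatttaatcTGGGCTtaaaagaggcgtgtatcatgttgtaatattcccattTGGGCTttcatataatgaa
RPS2A, chr1:21688685-21688934, plus strand: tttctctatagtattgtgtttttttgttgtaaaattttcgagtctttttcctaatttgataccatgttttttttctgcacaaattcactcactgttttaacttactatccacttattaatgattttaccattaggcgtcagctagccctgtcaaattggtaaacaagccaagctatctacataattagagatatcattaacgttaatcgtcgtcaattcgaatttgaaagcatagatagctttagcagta
The window of RPS9B held 3 matches of TGGGCC, 1 of TGGGCT and 1 of AAACCCTA, and that of RPS15A held 2 of TGGGCC and 2 of TGGGCT. Absence of the letters says only that they are not in this window.

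Paralogs of a family could be told apart by the reads in most cases. Over the annotated transcripts, 47 of the 60 genes shared no stretch of 75 bases, the length of 1 read, with another gene. Only 4 shared over 10% of their stretches, namely RPS2B (100%), RPS17B (33.3%), RPS17A (27.8%) and RPS2A (18%), whose values can therefore hold reads of a copy. For 19 members an exon overlaps a neighbouring gene, and the use of strand in counting was not given in the sources used here. The 3 genes of uS17 (S11), the family in which the split between paralogs differed most, show how far near-copies diverge. Their first 75 coding bases are given with the differences from RPS11A in capitals, 12 in RPS11B and 7 in RPS11C.
RPS11A, chromosome 3: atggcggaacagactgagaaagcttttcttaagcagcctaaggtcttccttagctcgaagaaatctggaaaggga
RPS11B, chromosome 4: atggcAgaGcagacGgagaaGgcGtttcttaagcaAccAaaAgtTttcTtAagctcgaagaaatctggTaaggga
RPS11C, chromosome 5: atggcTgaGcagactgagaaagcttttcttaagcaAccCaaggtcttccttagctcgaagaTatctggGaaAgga

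Levels differed widely between the paralogs of most families. Per kb of exon, RPS8A, the gene of body protein eS8 and the only tested gene of its family, was highest at a mean of 2195 normalized counts per kb over the 15 libraries. RPS3aA (eS1) followed with 1058 and RPSaA (uS2) with 1039.7. At the other end were RPS9C (uS4) with 34.2, RPS19B (eS19) with 29.2 and RPSaB (uS2) with 19.2 normalized counts per kb. In 6 of the 21 families with at least 2 tested genes, a single paralog held over 70% of the family's level per kb. The ratio of the highest to the lowest paralog was 1.06 in the eS21 family, whose genes are RPS21B and RPS21C, and 54.1 in the uS2 family, and it exceeded 10-fold in 5 families. The 3 low genes named here are minor paralogs in families led by another gene.

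**Figure D1:**
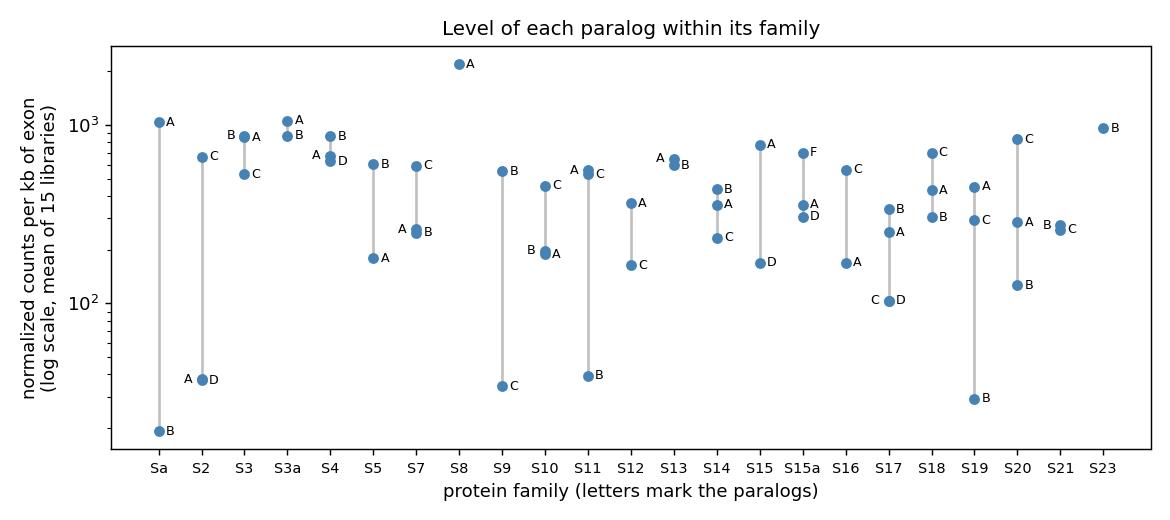
Mean level of each of the 57 tested genes over the 15 libraries, in normalized counts per kb of exon on a log axis, with the paralogs of a family joined by a line and marked by their letter. RPS8A stands highest at 2195, RPSaB lowest at 19.2, and the families Sa, S2, S9, S11 and S19 span more than 10-fold.

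Many of the small-subunit genes rose by modest amounts in the single mutants, 33 of 57 in rps6a and 47 of 57 in rps6b, and none fell. The call rule for a rise or fall was a limma adjusted p under 0.05, adjusted by Benjamini-Hochberg over all 16335 genes. In rps6a against WT, 33 of the 57 genes rose and 0 fell, where 10.4% of all genes tested rose and 10.8% fell (21.2% together). In rps6b against WT, 47 rose and 0 fell, where 11.6% of all genes rose and 11.7% fell (23.3% together). The fold changes were positive for 56 of the 57 genes in each comparison, with a median of 0.35 on the log2 scale in rps6a and 0.46 in rps6b, beside -0.01 in each over all genes tested. The libraries of rps6a and WT did not overlap for 30 of the 57 genes, against 35.2% of all genes tested, and those of rps6b and WT did not overlap for 51, against 36.8%. The rises that passed the test ran between 0.24 and 0.97 in rps6a and between 0.28 and 1.12 in rps6b. Both comparisons use the same 3 WT libraries, and a larger share of the RNA from dividing cells and more of these transcripts per cell cannot be told apart in whole shoots. The count in rps6a was 16 without WT replicate 3 and 19 without rps6a replicate 1. It was 54 when libraries were scaled by the spike-in RNAs, which moves the median of all genes in that comparison by 0.35. The count in rps6b was 33 under that scaling, against 47. The share of all genes passing under spike-in scaling is not given here, for these or the other comparisons.

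**Figure D2:**
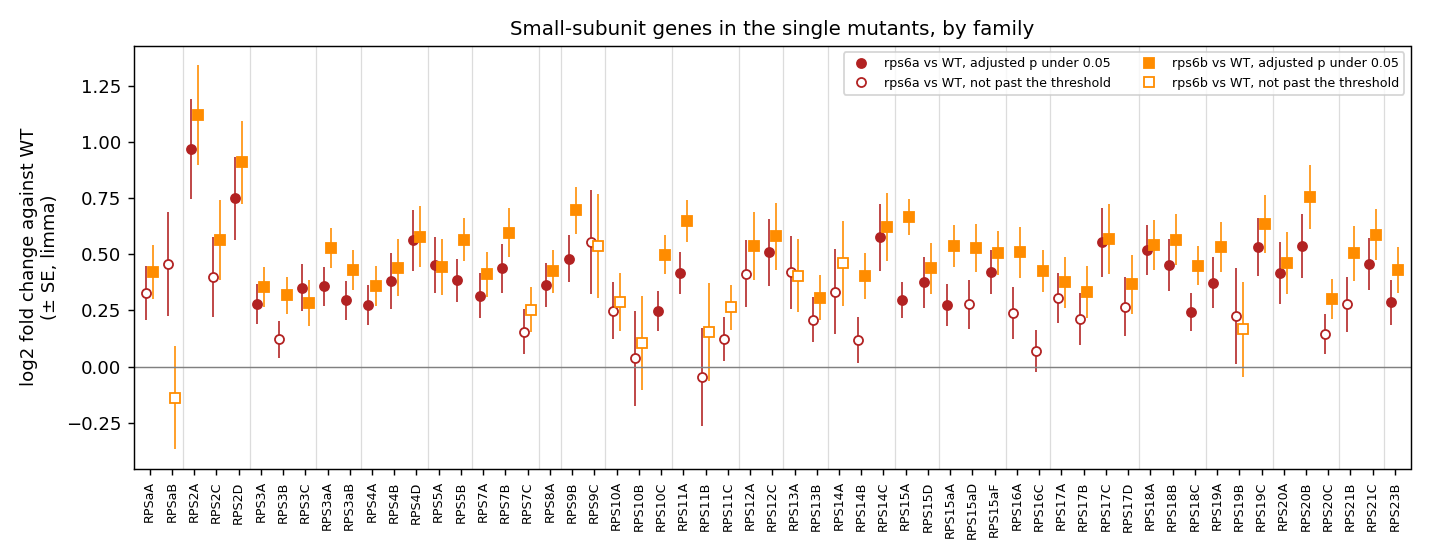
Log2 fold change of each of the 57 genes in rps6a against WT (circles) and rps6b against WT (squares), with the standard error from limma as bars, ordered by family from Sa to S23. Filled symbols passed the adjusted p of 0.05, which are 33 circles and 47 squares, and the 2 points below 0 are RPS11B in rps6a and RPSaB in rps6b.

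The sum over the 57 genes was 31192 ± 1991 normalized counts in rps6a, 34054 ± 1256 in rps6b, 23343 ± 320 in eS6A-HA, 25280 ± 3588 in eS6A-Δ6SA and 24939 ± 2758 in WT (SD, n = 3 each). These were 1.25, 1.37, 0.936 and 1.01 times the WT mean in the 4 mutant lines in that order. As a share of reads from nuclear genes, which does not use the size factor, the genes took 0.957% ± 0.0546 in rps6a, 1.02% ± 0.0389 in rps6b, 0.668% ± 0.0128 in eS6A-HA, 0.730% ± 0.0998 in eS6A-Δ6SA and 0.715% ± 0.0736 in WT. The lowest single-mutant library, at 0.898%, lay above the highest WT library, at 0.794%. For 55 of the 57 genes both single mutants had means above those of the other 3 genotypes, the exceptions being RPSaB and RPS11B. Under the deposited scaling, the mean of rps6b was the highest of the 5 for 51 genes and that of rps6a for 6. Which of the 2 single mutants is higher depends on the scaling. Under spike-in scaling the median fold change of the 57 genes in rps6a against rps6b was 0.30.

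Summed per family and per kb, all 23 families had a mean above WT in both single mutants. The ratio to WT ran between 1.08 in S16 and 1.39 in S9 for rps6a, with a median of 1.25, and between 1.25 in S3 and 1.60 in S9 for rps6b, with a median of 1.36. In rps6a every tested gene rose in 7 families, part of the genes in 13 and none in 3, which were Sa, S13 and S16. In rps6b every tested gene rose in 15 families and part of them in the other 8. The split into head and body proteins made little difference to the counts. Of 27 genes of head proteins 16 rose in rps6a and 24 in rps6b, with medians of 0.31 and 0.45 on the log2 scale. Of 30 genes of body proteins 17 rose in rps6a and 23 in rps6b, with medians of 0.36 and 0.48.

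Among the body proteins, uS5 (S2) lies at the entry of the messenger RNA channel, and its low-level genes rose most. RPS2A (AT1G58380) had 70.1, 65.6 and 46.0 normalized counts in rps6a and 58.8, 77.4 and 63.8 in rps6b, against 28.5, 30.9 and 30.5 in WT. Every single-mutant library lay above every WT library, and the log2 fold changes were 0.97 (SE 0.22, limma adjusted p 0.00136) in rps6a and 1.12 (limma adjusted p 2.56e-04) in rps6b. RPS2D (AT3G57490) had 67.7, 54.0 and 46.0 in rps6a and 64.3, 62.7 and 58.4 in rps6b, against 33.2, 33.6 and 30.5 in WT, likewise without overlap. Its fold changes were 0.75 (limma adjusted p 0.00275) and 0.91 (limma adjusted p 3.25e-04). RPS2C, which carries 89.9% of the family's level per kb, showed a wider spread, with 1098, 1078 and 866 in rps6a and 1067, 1086 and 1243 in rps6b, against 955, 616 and 759 in WT. It rose in rps6b by 0.56 (limma adjusted p 0.0392) and was at 0.40 in rps6a (limma adjusted p 0.146), where the libraries overlapped.

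The uS4 (S9) protein, also at the channel entry, belongs to the family with the largest ratio in both mutants. RPS9B (AT5G15200) had 828, 884 and 825 normalized counts in rps6a and 904, 1042 and 1007 in rps6b, against 701, 644 and 493 in WT. The log2 rise in rps6a was 0.48 with a standard error of 0.10 and a limma adjusted p of 0.00104, and that in rps6b was 0.70 with a limma adjusted p of 9.19e-06. Its minor paralog RPS9C (AT5G39850) had 41.1, 39.0 and 56.8 in rps6a and 46.3, 40.7 and 46.7 in rps6b, against 33.2, 32.7 and 25.7 in WT. The groups did not overlap and the fold changes were 0.55 and 0.54, but the spread at this level was wide and neither passed (limma adjusted p 0.0862 and 0.0924); edgeR on the recovered reads gave an adjusted p of 0.0453 in rps6a.

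RPS8A (AT5G20290), the gene with the highest level, had 2834, 3127 and 2664 normalized counts in rps6a and 2743, 3109 and 3149.7 in rps6b, against 2255, 2411 and 2041 in WT. It rose by 0.36 (limma adjusted p 0.00658) in rps6a and 0.42 (limma adjusted p 0.00151) in rps6b, with no overlap. Of the 3 tested genes of eS4 (S4), a protein bound to the ribosomal RNA of the body, all rose in both mutants. RPS4D moved most, with 1045, 835 and 776 in rps6a and 926, 937 and 807 in rps6b, against 715, 563 and 522 in WT, and fold changes of 0.56 (limma adjusted p 0.00529) and 0.58 (limma adjusted p 0.00395). For eS1 (S3a), which lines the platform of the body, RPS3aA (AT3G04840) had 1451, 1380.0 and 1421 in rps6a and 1580.2, 1669 and 1544 in rps6b, against 1259, 1039.6 and 1035 in WT. It rose by 0.36 and 0.53 (limma adjusted p 0.00274 and 2.03e-05).

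The eS21 gene RPS21C rose to 196, 195 and 193 normalized counts in rps6a and 210.2, 211 and 218 in rps6b, against 166, 141 and 121 in WT, fold changes of 0.46 and 0.59 (limma adjusted p 0.00343 and 2.16e-04). For uS11 (S14), a platform protein, RPS14C rose by 0.58 in rps6a (limma adjusted p 0.00694) and 0.62 in rps6b (limma adjusted p 0.00348). Its values were 301, 259 and 209 in rps6a and 271, 275 and 241 in rps6b, against 216, 139.8 and 162 in WT, so 1 rps6a library lay below the highest WT library. Its paralog RPS14B, with 423, 394 and 361 in rps6a and 499, 471 and 464 in rps6b, against 426, 348 and 318 in WT, rose in rps6b by 0.40 (limma adjusted p 0.00359) and was at 0.12 in rps6a (limma adjusted p 0.459). RPS14A (AT2G36160) had 405, 360.4 and 287 in rps6a and 356, 412 and 371 in rps6b, against 374, 258 and 216 in WT, and with 1 WT library as high as the mutants it passed in neither (limma adjusted p 0.248 and 0.0997).

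The uS2 family (Sa), whose protein stands near the exit of the messenger RNA, held the lowest gene of all, and there the values of the 2 mutants lay apart. RPSaA (AT1G72370) had 1733, 1463 and 1343 normalized counts in rps6a and 1580.2, 1725 and 1512 in rps6b, against 1455, 1157 and 1020.3 in WT. It rose in rps6b by 0.42 (limma adjusted p 0.0150) and was at 0.33 in rps6a (limma adjusted p 0.0595). RPSaB (AT3G04770) held 2.34% of the family's level per kb in rps6a, 1.48% in rps6b and 2.15% in WT. It had 46.0, 40.7 and 37.6 in rps6a and 22.0, 26.9 and 33.2 in rps6b, against 30.8, 28.1 and 30.5 in WT. Its fold changes were 0.46 and -0.14 (limma adjusted p 0.164 and 0.723), so neither passed, and the direct difference of rps6a from rps6b was 0.60 (limma adjusted p 0.180).

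Among the head proteins, uS19 (S15) reaches with its tail towards the decoding site, and in rps6b its main gene had the smallest adjusted p of the named genes. RPS15A (AT1G04270) had 726, 803 and 749 normalized counts in rps6a and 980.3, 977 and 981 in rps6b, against 647, 650.1 and 558 in WT. The 3 groups did not overlap, and the fold changes were 0.30 (SE 0.08, limma adjusted p 0.00681) in rps6a and 0.67 (limma adjusted p 9.85e-08) in rps6b. For uS9 (S16), whose tail touches the transfer RNA in the P site, RPS16C (AT5G18380) had 520.1, 690.0 and 642 in rps6a and 739.5, 788 and 830.1 in rps6b, against 602, 580.2 and 571 in WT. It rose in rps6b by 0.42 (limma adjusted p 7.98e-04), while rps6a libraries lay on both sides of WT, at 0.07 (limma adjusted p 0.665).

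The gene RPS18A codes for uS13 (S18) at the top of the head and is also known as POINTED FIRST LEAF after its mutant. It had 461, 398 and 369 normalized counts in rps6a and 412, 415 and 417 in rps6b, against 339, 272 and 249 in WT, and rose by 0.52 and 0.54 (limma adjusted p 7.97e-04 and 4.56e-04). All 3 genes of this family rose in both mutants. For eS19, RPS19C (AT5G61170) had 341, 334 and 285 in rps6a and 314, 384 and 333 in rps6b, against 239.5, 231 and 194 in WT, with rises of 0.53 and 0.63 (limma adjusted p 0.00326 and 5.58e-04). The low gene RPS19B overlapped between all groups, with 39.9, 46.5 and 41.8 in rps6a and 41.6, 35.8 and 45.8 in rps6b, against 34.4, 41.8 and 33.4 in WT (limma adjusted p 0.503 and 0.633).

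RPS12C (eS12) and RPS17C (eS17) were also among the 10 genes with the largest fold change in rps6a. RPS12C (AT2G32060) had 267, 205 and 225 normalized counts in rps6a and 238, 262 and 229 in rps6b, against 189.7, 149 and 151 in WT, and rose by 0.51 and 0.58 (limma adjusted p 0.0151 and 0.00532). RPS17C (AT3G10610) had 127, 106 and 100.3 in rps6a and 111, 119 and 106 in rps6b, against 86.6, 79.9 and 61.0 in WT, and rose by 0.55 and 0.57 (limma adjusted p 0.00777 and 0.00584). In rps6a both lost their call without WT replicate 3 (limma adjusted p 0.0658 for RPS12C and 0.0833 for RPS17C) and without rps6a replicate 1 (0.0859 and 0.0628), and RPS12C also without WT replicate 2 (0.0744).

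The head protein uS3 (S3) helps to hold the messenger RNA at the channel entry, and its gene RPS3B stood near the lower end. It had 1049, 982 and 934 normalized counts in rps6a and 1057, 1219.6 and 1124 in rps6b, against 976, 901 and 852 in WT, with fold changes of 0.12 (limma adjusted p 0.318) and 0.32 (limma adjusted p 0.00352), so it rose in rps6b. Of the eS10 genes only RPS10C rose, with 483, 502 and 477 in rps6a and 599.9, 598 and 543 in rps6b, against 434, 433 and 366 in WT (fold changes 0.25 and 0.50, limma adjusted p 0.0391 and 4.61e-05). RPS10B (AT5G41520) had 212, 230.0 and 176 in rps6a and 179, 214 and 258 in rps6b, against 253, 164 and 192 in WT, and its fold changes of 0.04 and 0.10 were within the spread of the libraries. RPS10A was at 0.25 and 0.29 and passed in neither (limma adjusted p 0.174 and 0.102).

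The size of a rise was at most weakly related to how high a gene stood. Across the 57 genes, which share libraries and are not independent, the Spearman correlation of the fold change with the mean level per kb was -0.27 in rps6a and -0.12 in rps6b. Leading paralogs of the 21 families had median fold changes of 0.33 (rps6a) and 0.50 (rps6b), and the 34 other paralogs 0.36 and 0.46. The promoter motifs divided the genes as weakly. The 35 genes with TGGGCC or TGGGCT in the window had medians of 0.36 in rps6a and 0.51 in rps6b, and the 22 without had 0.30 and 0.44. RPS2A, the gene with the largest fold change in both mutants, had neither. Next in rps6b came RPS2D and RPS20B, also with neither, then RPS9B and RPS15A, with both.

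Within a family the shares of the paralogs were compared in a way that does not depend on the scaling of a library. The share of each gene in its family's level per kb was taken in each library, and the 6 single-mutant libraries were set against the 3 WT libraries by an exact two-sided permutation test, whose smallest p with 84 arrangements is 0.0119. Of 46 shares in 21 families, 11 had a p under 0.05 and 8 reached that smallest value with no overlap, but 0 had an adjusted p under 0.05 (smallest 0.0685, Benjamini-Hochberg over the 46). Shares of a family sum to the whole, so a larger share of a paralog means a smaller share of the others. The 46 shares are therefore not independent, and a single shift can be counted more than once among them. The shifts were small, with a median size of 1.61 percentage points and a largest of 6.00.

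The largest shift was in the uS17 family. RPS11A held 50.9% ± 0.472 of the family's level per kb in rps6a, 52.4% ± 0.288 in rps6b, 48.2% ± 1.86 in eS6A-HA, 49.4% ± 2.69 in eS6A-Δ6SA and 45.6% ± 1.14 in WT (SD, n = 3 each). The single-mutant libraries spanned 50.6% to 52.7% and the WT libraries 44.9% to 46.9%, a difference of 6.00 percentage points (exact permutation p 0.0119, adjusted 0.0685). RPS11C held 46.0% ± 0.794 in rps6a, 44.5% ± 0.683 in rps6b, 48.1% ± 1.61 in eS6A-HA, 46.7% ± 2.12 in eS6A-Δ6SA and 50.6% ± 0.759 in WT, a difference of -5.33 percentage points between single mutants and WT with the same p. Since RPS11B held little of the family, the differences of RPS11A and RPS11C largely mirror each other and are not separate results. Per kb of exon, RPS11A was thus the larger of the pair in both single mutants and RPS11C in WT. In rps6a this order rests on the annotated exon lengths, 821 bases for RPS11A and 916 for RPS11C. Before division by length the rps6a means were 519 for RPS11A and 524 for RPS11C. In rps6b they were 609 and 578. In normalized counts RPS11A (AT3G48930) had 525, 509.8 and 522 in rps6a and 588, 628 and 611 in rps6b, against 455, 363 and 355 in WT, and rose by 0.42 and 0.65 (limma adjusted p 0.00110 and 2.36e-06). RPS11C (AT5G23740) had 542, 508 and 522 in rps6a and 551, 609 and 574 in rps6b, against 539.5, 456 and 453 in WT, and its fold changes of 0.12 and 0.26 did not pass (limma adjusted p 0.424 and 0.0521). RPS11B (AT4G30800), at 3 to 4% of the family, had 33.9, 52.3 and 31.8 in rps6a and 42.3, 38.3 and 53.0 in rps6b, against 39.1, 42.7 and 37.2 in WT, with no difference past the spread (-0.05 and 0.15). An exon of RPS11A overlaps a gene on the other strand, whose reads cannot be told apart from its own without strand.

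For uS10 (S20), a head protein, the smallest paralog held a larger share and the largest a smaller share in the single mutants than in WT. RPS20C held 64.7% ± 2.16 in rps6a, 65.6% ± 0.647 in rps6b, 67.6% ± 2.32 in eS6A-HA, 68.8% ± 3.05 in eS6A-Δ6SA and 69.5% ± 0.620 in WT. The single mutants and WT did not overlap (-4.36 percentage points, exact permutation p 0.0119, adjusted 0.0685). RPS20B held 10.9% ± 0.541 in rps6a, 11.6% ± 0.211 in rps6b and 8.90% ± 0.280 in WT (2.34 points, exact permutation p 0.0119). In normalized counts RPS20B (AT3G47370) had 151, 125 and 129.5 in rps6a and 157, 164 and 151 in rps6b, against 109, 90.8 and 80.1 in WT, with rises of 0.54 and 0.76 (limma adjusted p 0.00511 and 1.16e-04). RPS20A rose by 0.42 and 0.46 (limma adjusted p 0.0303 and 0.0150). RPS20C rose in rps6b by 0.30 (limma adjusted p 0.0117) and was at 0.14 in rps6a (limma adjusted p 0.276).

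In the eS7 family the leading gene RPS7C also held a smaller share. It had 52.8% ± 0.810 in rps6a, 52.3% ± 1.34 in rps6b, 52.5% ± 3.65 in eS6A-HA, 55.0% ± 2.84 in eS6A-Δ6SA and 56.5% ± 1.44 in WT (-4.02 points between single mutants and WT, exact permutation p 0.0119). RPS7B held 22.6% to 25.5% over the 6 single-mutant libraries and 20.6% to 20.8% over the WT libraries (3.19 points, exact permutation p 0.0119). RPS7B (AT3G02560) had 386, 351 and 333 normalized counts in rps6a and 386, 432 and 376 in rps6b, against 287, 278 and 227 in WT, and rose by 0.44 and 0.60 (limma adjusted p 0.00299 and 8.11e-05). RPS7A rose by 0.32 and 0.41 (limma adjusted p 0.0199 and 0.00227), and RPS7C was at 0.16 and 0.25 (limma adjusted p 0.285 and 0.0593), passing in rps6b under edgeR on the recovered reads (adjusted p 0.0489). The other 2 shares at the smallest p were those of RPS2A (1.73 points) and RPS17C (2.04 points). RPS2A shares stretches with near copies, as do RPS17A and RPS17B, which enter the family sum for RPS17C. Exons of RPS17C, RPS7A, RPS7B and RPS7C each overlap a neighbouring gene, so these shares can hold its reads. In the S14 family RPS14B differed by -3.60 points and RPS14C by 3.28 (exact permutation p 0.0952 and 0.0238), and in S10 RPS10B by -3.51 and RPS10C by 3.58 (exact permutation p 0.131 and 0.238), with libraries that overlapped.

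**Figure D3:**
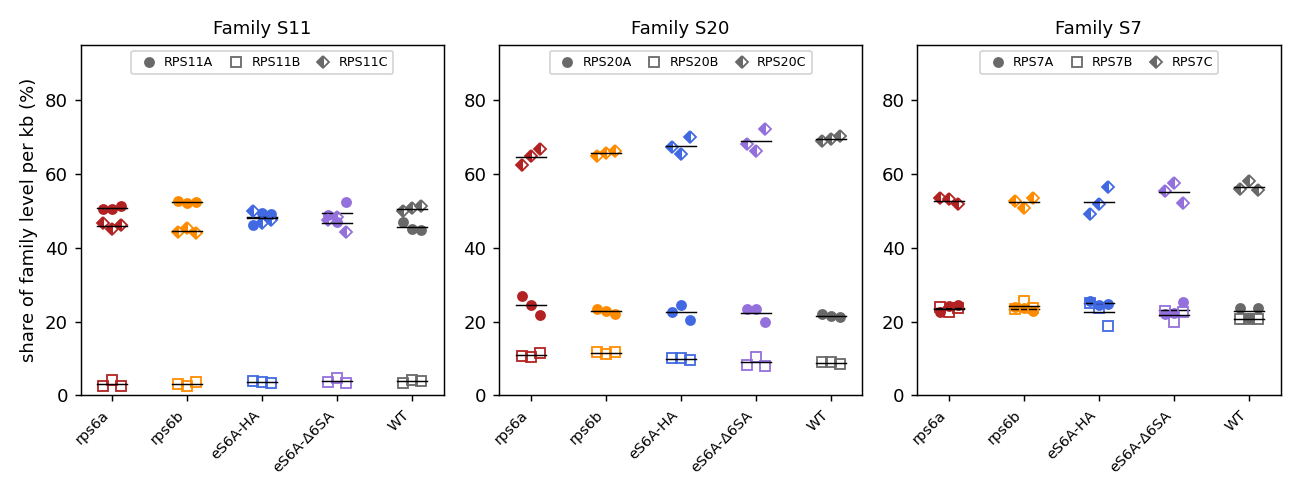
Share of each paralog in its family's level per kb, in percent, for the 3 families with the largest shift (S11, S20 and S7), with 1 point per library and a line at the mean of each genotype. RPS11A stands above RPS11C in all 6 single-mutant libraries and below it in all 3 WT libraries, and RPS20C and RPS7C stand lower in the single mutants than in WT. In rps6a the order of RPS11A and RPS11C depends on the division by exon length.

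In the double mutants with a transgene none of the 57 genes differed from WT at the threshold. In eS6A-HA against WT, 0 genes passed by limma, edgeR or DESeq2, where 0.796% of all genes tested did (0.551% higher, 0.245% lower). An unadjusted limma p under 0.05 was reached by 1826 of all 16335 genes tested and by 5 of the 57. The median fold change was -0.09, with 45 of the 57 genes below 0, and the range -0.73 to 0.34. In eS6A-Δ6SA against WT, 0 genes passed by any of these tools, where 2.57% of all genes did (1.33% higher, 1.24% lower). An unadjusted limma p under 0.05 was reached by 2253 of all 16335 genes tested and by 1 of the 57. The median of the 57 was 0.02 and 34 of their fold changes were positive. These medians changed sign when single libraries were left out, spanning -0.15 to 0.02 in the first of these comparisons and -0.09 to 0.11 in the second. eS6A-HA had the lowest mean of the 5 genotypes for 41 of the 57 genes.

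The lowest value in eS6A-HA belonged to RPSaB, with 23.7, 14.6 and 15.7 normalized counts in eS6A-HA, against 30.8, 28.1 and 30.5 in WT. The groups did not overlap, but the fold change of -0.73 (SE 0.23) did not pass (limma adjusted p 0.155). In eS6A-Δ6SA the gene had 22.2, 27.5 and 25.8. RPS2D, which rose in both single mutants, had 40.1, 38.8 and 29.2 in eS6A-HA and 40.1, 49.3 and 42.3 in eS6A-Δ6SA, against 33.2, 33.6 and 30.5 in WT, with fold changes of 0.14 and 0.42 (limma adjusted p 0.852 and 0.281). RPS2A had 33.9, 52.2 and 31.5 in eS6A-HA and 34.8, 50.4 and 24.7 in eS6A-Δ6SA, against 28.5, 30.9 and 30.5 in WT (0.34 and 0.23, limma adjusted p 0.602 and 0.720). RPS15A had 652, 618 and 629 in eS6A-HA and 571, 643 and 576 in eS6A-Δ6SA, against 647, 650.1 and 558 in WT. RPS11A had 370.3, 362 and 373 in eS6A-HA and 367, 466 and 415 in eS6A-Δ6SA, against 455, 363 and 355 in WT. For both genes the 3 groups overlapped.

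The transgenic lines eS6A-Δ6SA and eS6A-HA, which share the double mutation, were also compared with each other. They differed in the level of RPS6A too, with 1112, 1385 and 1220 normalized counts in eS6A-Δ6SA, against 1765, 1879 and 1836 in eS6A-HA. Both eS6 genes passed as lower in eS6A-Δ6SA by limma, RPS6A by -0.56 and RPS6B by -0.42. The part of that level in the differences below was not tested. Between these lines 0 of the 57 genes passed by limma, edgeR or DESeq2, where 2.63% of all genes tested did (1.23% higher, 1.4% lower). An unadjusted limma p under 0.05 was reached by 2549 of all 16335 genes tested and by 7 of the 57. The median fold change was 0.09 and 45 of the 57 were positive. Without eS6A-Δ6SA replicate 1, 4 genes rose, and under spike-in scaling, which moves the median of all genes by 0.21, 8 rose. RPS14C (AT3G52580) had 161, 225 and 223 normalized counts in eS6A-Δ6SA, against 171, 146 and 151 in eS6A-HA (0.37, limma adjusted p 0.220), and RPS19C had 202, 324 and 263 in eS6A-Δ6SA, against 222, 186 and 201 in eS6A-HA (0.35, limma adjusted p 0.165). In both genes eS6A-Δ6SA replicate 2 was the highest of its group and the spread within eS6A-Δ6SA was wider than within eS6A-HA.

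**Figure D4:**
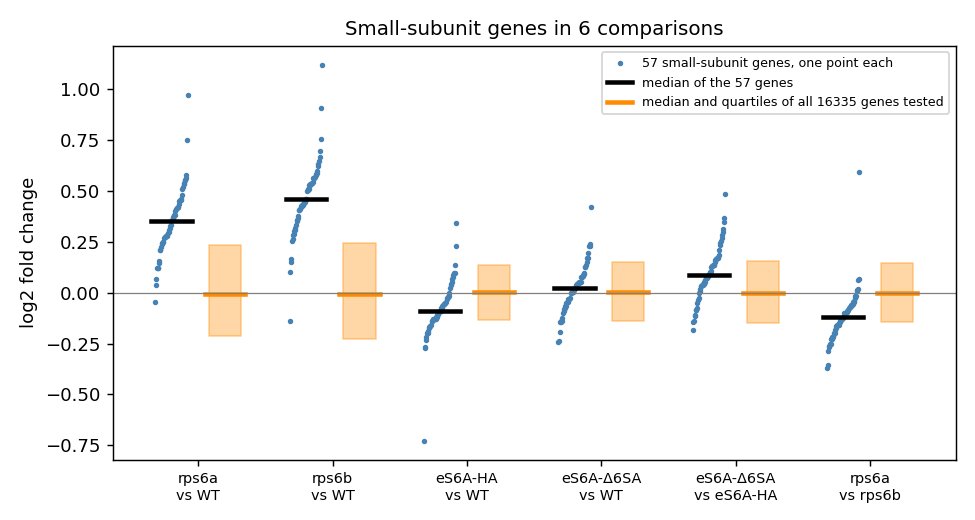
Log2 fold changes of the 57 genes in 6 comparisons (blue points, with a black line at their median) beside the median and quartiles of all 16335 genes tested (orange). The medians of the 57 genes are 0.35 in rps6a and 0.46 in rps6b against WT, and between -0.12 and 0.09 in the other 4 comparisons, where the -0.12 of rps6a against rps6b turns to 0.30 under spike-in scaling.

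The 2 single mutants were also compared with each other. In rps6a against rps6b 0 genes rose and 2 fell, where 1.3% of all genes tested rose and 1.62% fell (2.92% together). An unadjusted limma p under 0.05 was reached by 2356 of all 16335 genes tested and by 12 of the 57. The fold change was negative for 51 of the 57 genes, with a median of -0.12 that turned to 0.30 under spike-in scaling, and the libraries of 17 of the 57 genes did not overlap, against 20.8% of all genes tested. The 2 genes were RPS15A, with 726, 803 and 749 normalized counts in rps6a, against 980.3, 977 and 981 in rps6b (log2 difference -0.37, standard error 0.08, limma adjusted p 0.00563), and RPS16C, with 520.1, 690.0 and 642 in rps6a, against 739.5, 788 and 830.1 in rps6b (log2 difference -0.36, standard error 0.09, limma adjusted p 0.0252). For RPS16C rps6a replicate 1 was the lowest library, and the call was lost without it (limma adjusted p 0.264) and without rps6b replicate 2 or 3 (0.0850 and 0.141). The direction depends on the scaling of the libraries. Spike-in scaling moves the median of all genes in this comparison by 0.41, and under it 20 of the 57 genes rose in rps6a against rps6b, 0 fell, and RPS15A and RPS16C stood at 0.05 and 0.06. Relative to the median of all genes, the median of the 57 genes was lower in rps6a under both scalings.

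In 3 of the 5 genotypes most small-subunit genes shared both their highest and their lowest library. Of the 57 genes, rps6a replicate 1 held the highest rps6a value for 41 and replicate 3 the lowest for 41. In eS6A-Δ6SA, replicate 2 was highest for 55 and replicate 1 lowest for 43, and in WT, replicate 1 was highest for 46 and replicate 3 lowest for 47. The order was less shared in rps6b, where replicate 2 was highest for 34 and the lowest value lay in replicate 1 for 24 and in replicate 3 for 27. In eS6A-HA no library stood out, with the highest value in replicates 1, 2 and 3 for 16, 22 and 19 genes and the lowest for 24, 14 and 19. The median difference from the WT mean was 0.43, 0.38 and 0.26 on the log2 scale in the rps6a libraries and 0.46, 0.53 and 0.47 in the rps6b libraries. The eS6A-HA libraries were at -0.08, -0.05 and -0.08. The eS6A-Δ6SA libraries were at -0.14, 0.25 and -0.03, and the WT libraries at 0.19, -0.03 and -0.14. The lowest single-mutant library, rps6a replicate 3 at 0.26, thus stood close to eS6A-Δ6SA replicate 2 at 0.25 and to the highest WT library at 0.19. The counts of members called are therefore not counts of independent results. Across 1867 other nuclear genes of similar exon length, the same median was at most 0.08 in any library.

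**Figure D5:**
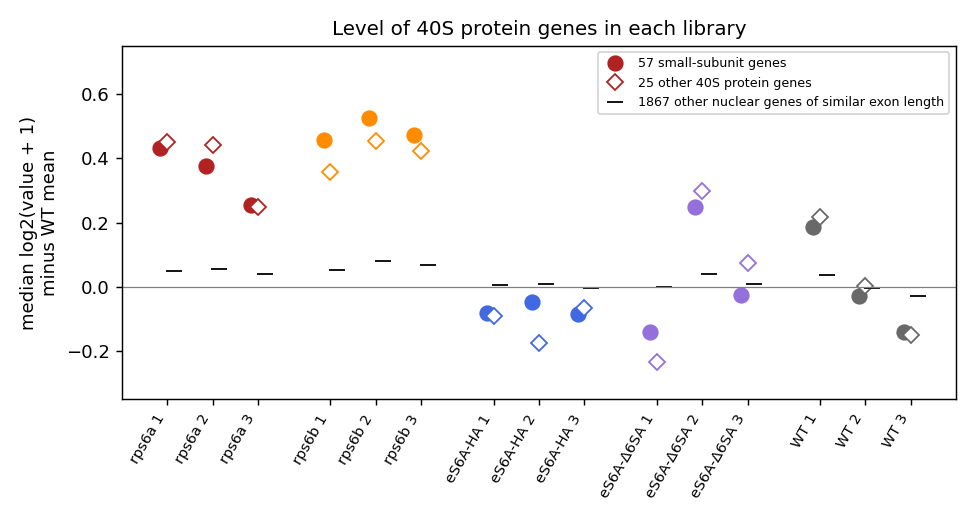
Median difference from the WT mean, in log2(normalized count + 1), for the 57 small-subunit genes (filled circles), 25 further 40S protein genes (open diamonds) and 1867 other nuclear genes of similar exon length (dashes) in each of the 15 libraries. The 57 genes lie between 0.26 and 0.53 in the single mutants, between -0.14 and 0.25 in the other lines, and the open diamonds lie near the circles.

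The remaining 40S proteins, S24 to S30 and the scaffold RACK1, formed a list of their own. Of 27 genes listed, 25 were tested, and 13 rose in rps6a and 15 in rps6b, with 0 falling and medians of 0.40 in each. Among all genes tested, 10.4% rose in rps6a and 11.6% in rps6b. RPS28C rose by 0.53 in rps6a and 0.66 in rps6b (limma adjusted p 5.63e-04 and 3.07e-05), and in eS6A-Δ6SA against eS6A-HA it was the single gene of the 25 to rise (0.41, limma adjusted p 0.0388). RACK1B had 79.8, 109 and 104 normalized counts in rps6a and 152, 147 and 144 in rps6b, against 83.0, 73.5 and 56.3 in WT. It rose by 0.46 and 1.06 (limma adjusted p 0.0270 and 1.72e-06) and was the single gene of the 25 to differ between the mutants, with a log2 difference of rps6a from rps6b of -0.61 under the deposited scaling (limma adjusted p 0.0174). In eS6A-HA and in eS6A-Δ6SA against WT, 0 of the 25 passed by limma. In each, 2 of them had an unadjusted limma p under 0.05, against 1826 and 2253 of all 16335 genes tested. The other eS6 gene rose too where 1 was mutated, RPS6B by 0.39 in rps6a (limma adjusted p 0.00405) and RPS6A by 0.86 in rps6b (limma adjusted p 1.14e-06).

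Of 9 markers of dividing cells, 5 rose in rps6a and 5 in rps6b, and 0 fell, where 10.4% and 11.6% of all genes tested rose. Among those that rose were the mitotic cyclin gene CYCB1;1 (1.39 and 1.42) and the cytokinesis gene KNOLLE (0.89 and 0.98). The cyclin-dependent kinase gene CDKB1;1 was at 0.47 and 0.45, short of the threshold in both. Of the DNA replication genes on the list, MCM2 rose (0.34 and 0.37), while PCNA1 (0.01 and 0.19), PCNA2 (0.06 and -0.06) and MCM5 (0.03 and 0.06) passed in neither mutant. In eS6A-HA against WT 0 of the 9 passed by limma (0 at an unadjusted p under 0.05). In eS6A-Δ6SA against WT 3 rose, where 1.33% of all genes tested rose. In eS6A-Δ6SA against eS6A-HA 4 rose, where 1.23% of all genes tested rose. In each of these comparisons 0 of the 57 small-subunit genes passed by limma. The summed level of the 9 genes ran between 834 and 911 normalized counts in rps6a and between 881 and 935 in rps6b. It was 580.1 to 597 for eS6A-HA, 661 to 835 for eS6A-Δ6SA and 517 to 729 for WT. Within rps6a it was highest in replicate 1 and lowest in replicate 3, within eS6A-Δ6SA highest in replicate 2 and lowest in replicate 1, and within WT highest in replicate 1 and lowest in replicate 3, the same libraries in which most small-subunit genes were highest and lowest. In rps6b the sum was highest in replicate 1, while most small-subunit genes were highest in replicate 2. In eS6A-HA it was highest in replicate 3 and lowest in replicate 2, the library in which more small-subunit genes were highest than in either of the others. The summed level of the 4 root markers with a row, nearly all of it PYK10, was 3588 to 4839 in rps6a, 2294 to 2459 in rps6b, 1528 to 1655 for eS6A-HA, 1775 to 2077 for eS6A-Δ6SA and 1307 to 2024 for WT. By limma PYK10 rose in rps6a (1.40) and rps6b (0.61) against WT and was higher in rps6a than in rps6b (0.78). It passed in neither eS6A-HA (0.04) nor eS6A-Δ6SA (0.32) against WT. WOX5, at a few reads per library, was also higher in the single mutants, with 4.84, 4.15 and 2.51 in rps6a and 3.14, 3.26 and 4.49 in rps6b, against 0, 0.908 and 0 in WT. PRP3 had 2.42, 4.15 and 4.18 in rps6a and 1.57, 1.63 and 5.39 in rps6b, against 0, 0 and 1.91 in WT, and COBL9 had 2.42, 0.830 and 4.18 in rps6a and 0.784, 0.815 and 1.80 in rps6b, against 0, 0 and 1.91 in WT. These genes were below the mean of 10 and were not tested. Of 4 photosynthetic shoot markers 3 fell in rps6a and 1 in rps6b, where 10.8% and 11.7% of all genes tested fell. The part of these cell types in the rise of the small-subunit genes was not tested.

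The 2 genes below the mean of 10 were not tested. RPS8B (AT5G59240) had 8.47, 24.1 and 11.7 normalized counts in rps6a and 9.41, 7.33 and 8.98 in rps6b, against 3.56, 1.82 and 1.91 in WT. RPS23A (AT3G09680), the paralog of RPS23B for the decoding-site protein uS12, had 4.84, 2.49 and 7.52 in rps6a and 3.14, 4.07 and 6.29 in rps6b, against 0, 0 and 0 in WT. At these levels a normalized count is close to a single read. RPS23B itself had 781, 869 and 781 in rps6a and 863, 980.0 and 848 in rps6b, against 695, 712 and 592 in WT, and rose by 0.29 and 0.43 (limma adjusted p 0.0437 and 0.00211).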

How the data were processed

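Ribosomal-RNA-depleted total RNA with added spike-in RNAs was sequenced with paired-end reads of 75 bases, per the labels. The deposited values were a signal per gene, a read count scaled by the size factor of its library, and the submitters' processing notes name STAR 2.7.6a, featureCounts 2.0.0, DESeq2 1.26.0 and the build TAIR10. The use of strand and of reads with several matches was not given in the sources used here. No sample column was left unused, and 77 spike-in rows, which took 4.39% to 6.08% of the reads, stayed out of the tests.

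The deposited values were turned to log2(normalized count + 1) and fitted with limma 3.58.1 (trend and robust, R 4.3.3) over all 15 libraries, with 1 coefficient per genotype and two-sided p-values adjusted by Benjamini-Hochberg over the 16335 genes whose mean reached 10. Fold changes on this scale understate the change of low genes. In each library 100% of the positive values were whole reads within 0.001, and on these reads edgeR 4.0.16 called 36 members and DESeq2 1.42.0 called 33 in rps6a against WT. The fit was tested on simulated data. Replicates differed by more than sampling noise (chi-square per degree of freedom 1.66 to 4.98). The number of reads limits the precision of low genes.

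Shares of paralogs used values per kb of annotated exon. Exon lengths, names, promoters and shared stretches came from RefSeq TAIR10.1, which may differ from the authors' annotation. The named genes are the 10 largest and 5 smallest fold changes in rps6a and in rps6b against WT, members called in another comparison, members of the 5 families with the largest shift in share, the 3 highest and 3 lowest levels per kb, and the genes nearest a mean of 10. Other genes named with values (RPS2C, the further paralogs of a named gene, the further 40S genes and markers) were chosen after their values were seen. The members and lists were chosen with earlier results of these data known. Alternatives were other pseudocounts (0.5), filters (none, a mean of at least 50), scalings, tools, fits and left-out libraries.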

Additional observations from a re-analysis of the deposited data

Results flagged for a closer look

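RPS15A and RPS16C differed between the single mutants when that difference was itself tested. RPS15A had 726, 803 and 749 normalized counts in rps6a, against 980.3, 977 and 981 in rps6b, a log2 difference of -0.37 (limma adjusted p 0.00563, n = 3 each). RPS16C had 520.1, 690.0 and 642 in rps6a, against 739.5, 788 and 830.1 in rps6b, a log2 difference of -0.36 (limma adjusted p 0.0252, n = 3 each). Under spike-in scaling the log2 differences were 0.05 and 0.06 and neither passed.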

How the results depend on the processing

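Results were compared by limits set for a change, whose values are not given here. Of 108 results on counts and medians under alternatives that keep all libraries, 102 stayed within these limits. The 6 that moved did so under spike-in scaling. That scaling shifts the median of all genes by 0.35 for rps6a, by -0.06 for rps6b, by -0.09 for eS6A-HA and by 0.12 for eS6A-Δ6SA against WT, by 0.21 for eS6A-Δ6SA against eS6A-HA and by 0.41 for rps6a against rps6b. Under it 54 members passed in rps6a against WT (median 0.71), 8 in eS6A-Δ6SA against eS6A-HA (median 0.30) and 20 in rps6a against rps6b (median 0.30). In rps6b against WT 33 passed, against 47 under the deposited scaling. The share of all genes passing under spike-in scaling is not given here. Leaving out 1 library gave counts of 16 to 40 in rps6a against WT, 35 to 52 in rps6b, 0 to 4 in eS6A-Δ6SA against eS6A-HA and 1 to 2 in rps6a against rps6b, and 0 in both transgenic lines against WT. By the same limits, 6 of these counts moved and 30 stayed, while the 36 medians stayed. Among named genes, RPS11B in rps6a turned positive under spike-in scaling (0.307), edgeR (0.0115) and DESeq2 (0.00596), and leaving out a library gave -0.265 to 0.0866. Leaving out a library also gave both signs for RPS10B in rps6a (-0.103 to 0.205) and in rps6b (-0.0360 to 0.272), RPS16C in rps6a (-0.0165 to 0.187) and RPSaB in rps6b (-0.284 to 0.00438). RPS15A and RPS16C in rps6a against rps6b turned under spike-in scaling (0.0498 and 0.0618). Differences in share turned for RPS7A (-0.0490 to 1.32 points), RPS10A (-0.676 to 0.638) and RPS14A (-1.21 to 1.65) without a library, for RPS10A in rps6a alone (0.875) and for RPS14A in rps6b alone (-0.231), where 3 against 3 libraries cannot give a p below 0.1. The cause was not tested. With the replicate number as a block, 35 members passed in rps6a, 47 in rps6b, 2 in rps6a against rps6b and 0 elsewhere. Whether the replicate numbers pair the libraries was not settled by their values. Same-numbered libraries correlated at -0.16 to 0.18 in their deviations (median 0.01, over 0.1 in 2 of 30 pairs). Libraries with different numbers correlated at -0.20 to 0.19 (over 0.1 in 4 of 60 pairs), while 8 of 15 libraries correlated best with their own number. Low genes such as RPSaB are limited by depth.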
